A study of Rattus norvegicus with 36 samples.

Results

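The cytosolic ribosomal protein genes were followed in the hearts of trained and sedentary rats. They were taken as every probe whose single annotated symbol begins with Rpl or Rps and a digit, or is Rplp0, Rplp1, Rplp2 or Rpsa, without the S6 kinases, provided that its detection score was at least 0.95 on at least 7 of the 36 arrays. By symbol there were 68 such probes of 67 genes, and 63 probes of 62 genes were detected, of 10956 probes detected among 22523 on the array. The probes of Rpl11, Rpl12, Rpl34 and Rpl36a were detected on 0 arrays and that of Rps19 on 5, so these 5 genes are not described further. The rule also takes in Rps19bp1 and Rpl7l1, which are not structural proteins of the ribosome, and the copies Rpl3l, Rpl22l1, Rpl36al1 and Rpl37l1.

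Each array measured the whole heart of 1 male Wistar Kyoto rat on an Illumina rat expression beadchip, and all rats were Control offspring, born to sham-operated mothers. At 24 weeks of age there were 7 later exercise rats (treadmill trained from week 20 to week 24), 8 early exercise rats (trained from week 5 to week 9 and then left untrained) and 7 sedentary rats, and at 9 weeks there were 7 early exercise rats at the end of the same early training and 7 sedentary rats. By the methods, the later exercise rats and the early exercise rats of 9 weeks were killed some days after their last run. Brothers of a litter went to different groups, but the labels do not say which rats were brothers, so the p-values measure the spread between these rats. By the labels there were 3 chips of 12 arrays, and each chip held all 5 groups. Values are deposited log2 signals, quantile normalized between arrays, and a difference of 1 is a factor of 2. The number of arrays limits their precision, and signals of different probes are not set against each other here.

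Ribosomal proteins are the protein part of the small (Rps) and large (Rpl) ribosomal subunit, and cells make them in step with ribosomal RNA. In mammals most of their mRNAs begin with a C and a run of pyrimidines, the 5′ terminal oligopyrimidine (TOP) motif, through which signalling by mTOR, downstream of Akt, controls their translation. Growth of the heart muscle under load or training goes with more ribosomes, and much of that control acts on translation, which an mRNA level does not show. In whole heart RNA, fewer cells of a type and less RNA per cell cannot be told apart.

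The promoters of the RefSeq table (build GRCr8) held an entry for 51 of the 62 genes, and 11 genes, Rps29 among them, had none. At the annotated start itself, a C followed by at least 4 bases that are each C or T stood in 20 of the 51 genes (39.2%) and in 2.63% of all 27457 promoters of the table. Within 10 bases of the start on either side it stood in 38 (74.5%), against 28.8% of all promoters. The letters CCGGAAG, on either strand of the same windows, were in 15 of the 51 (29.4%) and in 9.22% of all. The sequences below are those of the genes the results turn on and of the genes that 2 of them are copies of. Each gives 60 bases before the annotated start and 20 from it on, in lower case, with capitals for the C nearest the start that at least 4 bases of C or T follow, and for the unbroken C or T after it. Rpl13 lies at chr19:68062454-68062533, plus strand, Rpl13a at chr1:104748894-104748973, minus strand, Rps2 at chr10:14251788-14251867, plus strand, Rps24 at chr16:96457-96536, plus strand, Rpl31 at chr9:49143051-49143130, plus strand, Rpl22l1 at chr2:113683136-113683215, plus strand, Rpl22 at chr5:168117901-168117980, plus strand, Rpl3l at chr10:14258386-14258465, plus strand and Rpl3 at chr7:113507971-113508050, minus strand. Rps2 and Rpl3l stand close together on 1 chromosome. The capitals begin at the annotated start in Rpl31 and Rpl22, 1 base after it in Rpl13 and Rps24, 10 bases after it in Rpl3l and shortly before it in Rpl13a and Rps2, while Rpl22l1 and Rpl3 had none near this start. They mark only the part of a run from that C on: in Rps24, Rpl22, Rpl13a, Rps2, Rpl13 and Rpl3l the base just before the capitals is C or T as well. The whole run spans the start in Rps24 and Rpl22, ends on it in Rps2 and begins on it in Rpl13 and Rpl31.
Rpl13: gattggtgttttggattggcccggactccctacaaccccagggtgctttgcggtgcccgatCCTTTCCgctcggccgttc
Rpl13a: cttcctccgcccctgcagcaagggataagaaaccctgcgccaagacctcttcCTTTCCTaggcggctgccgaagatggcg
Rps2: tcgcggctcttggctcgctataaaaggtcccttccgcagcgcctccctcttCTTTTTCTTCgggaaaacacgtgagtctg
Rps24: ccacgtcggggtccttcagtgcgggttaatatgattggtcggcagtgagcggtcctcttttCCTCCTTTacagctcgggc
Rpl31: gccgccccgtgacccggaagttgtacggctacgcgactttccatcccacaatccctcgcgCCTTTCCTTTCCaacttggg
Rpl22l1: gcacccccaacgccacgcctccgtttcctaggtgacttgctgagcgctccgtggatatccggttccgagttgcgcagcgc
Rpl22: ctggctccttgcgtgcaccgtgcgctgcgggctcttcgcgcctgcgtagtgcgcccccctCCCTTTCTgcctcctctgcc
Rpl3l: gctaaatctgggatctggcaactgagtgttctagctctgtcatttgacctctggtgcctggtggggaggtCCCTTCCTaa
Rpl3: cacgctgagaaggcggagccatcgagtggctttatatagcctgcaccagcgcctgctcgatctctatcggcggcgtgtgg
The 20 probes of genes with the tract at the start and the 32 without it were described side by side in each comparison. Their median log2 differences were 0.044 and 0.115 for later exercise, 0.054 and 0.119 for early exercise at 24 weeks, and 0.094 and 0.106 for early exercise at 9 weeks, each minus sedentary. The median was the smaller in genes with the tract in all 3, and no test was made of it.

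Of the 63 probes, 60 were detected on all 36 arrays. Rps16 was detected on 33, the weaker of the 2 Rps9 probes on 27, and Rplp2 on 17 (3 later exercise, 6 early exercise and 3 sedentary hearts of 24 weeks, and 3 early exercise and 2 sedentary hearts of 9 weeks). The mean log2 signal ran from 5.85 to 14.90. Most of these probes varied little between rats of 1 group: the SD within groups had a median of 0.155 over the 63 probes, from 0.0874 for Rpl7a to 0.790 for Rpl30, against a median of 0.204 over all detected probes. The 2 medians were not matched for signal level, and 42 of the 63 were among the 500 brightest detected probes. They did not all move as 1 block from heart to heart, since the correlation within groups between 2 of the probes, over the 36 arrays they share, had a median of 0.10 over 1953 pairs and was above 0 in 59.8% of them. A part was shared: 47 of the 63 had a correlation above 0 with the median of the others, and 20 had one above 0.5.

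The median of the 63 probes on each array gives their common level. It was 13.66 to 13.74 in later exercise hearts (median 13.70), 13.62 to 13.77 in early exercise hearts of 24 weeks (median 13.70) and 13.46 to 13.70 in sedentary hearts of 24 weeks (median 13.57). At 9 weeks it was 13.67 to 13.82 in early exercise hearts (median 13.77) and 13.47 to 13.73 in sedentary hearts (median 13.55). The medians of the trained groups lay above those of the sedentary rats of the same age, the groups overlapped, and the SD of this level within groups was 0.0695.

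The same arrays differed in another way that runs alongside. The mean of 19 probes of very long transcripts, whose signal can follow RNA integrity and labelling, was 8.14 to 8.69 (median 8.54) in later exercise hearts, 8.56 to 8.73 (median 8.64) in early exercise hearts of 24 weeks and 8.73 to 9.14 (median 8.89) in sedentary hearts of 24 weeks. It was 8.48 to 8.77 (median 8.57) in early exercise and 8.61 to 8.98 (median 8.83) in sedentary hearts of 9 weeks. It was lower in each trained group, with no overlap at 24 weeks. The mean raw signal of an array was 315 to 709 in later exercise hearts, 571 to 831 in early exercise and 715 to 1307 in sedentary hearts of 24 weeks, and 613 to 962 in early exercise and 470 to 1214 in sedentary hearts of 9 weeks. The part of either in the differences between trained and sedentary rats was not tested beyond the fits with each as a covariate that are given below.

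**Figure D1:**
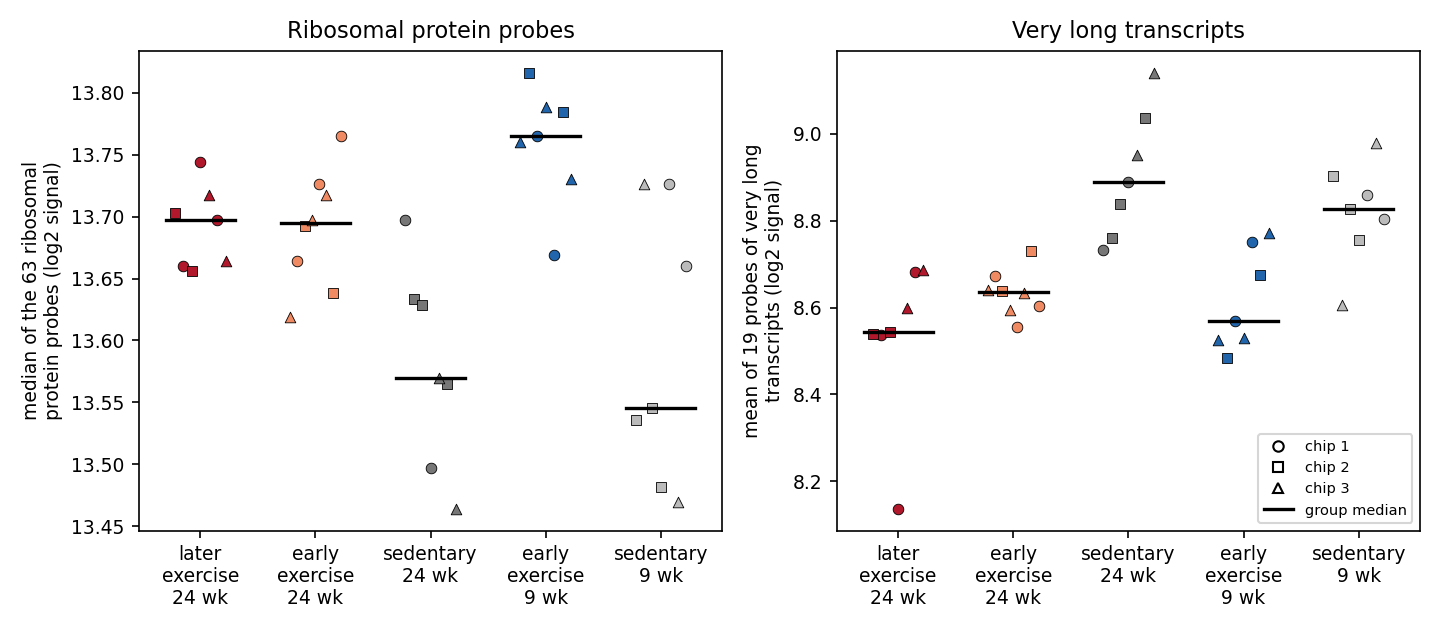
Median log2 signal of the 63 ribosomal protein probes (left) and mean log2 signal of 19 probes of very long transcripts (right) on each array, 1 point per heart by group, with the chip as the shape of the point and the group median as a bar. The trained groups have the higher medians on the left (13.70, 13.70 and 13.77, against 13.57 and 13.55 in sedentary rats of 24 and 9 weeks) and the lower ones on the right.

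Later exercise was compared with sedentary life at 24 weeks to see what training in adult life does to these genes. Of the 63 probes, 4 were higher at an adjusted p below 0.05 (limma, Benjamini-Hochberg over all 10956 probes) and 0 were lower, beside 4.59% of all probes higher and 7.79% lower. The 4 are 6.35% of the probes, a share not far from the background. They were Rps2, Rpl13, Rpl13a and Rps29, with folds of 1.22 to 1.34. Without adjustment, 11 probes (17.5%) were higher and 1 (1.59%) lower at a p below 0.05, beside 10.9% and 15.4% of all probes. The median log2 difference over the 63 probes was 0.075, with 43 above 0, against −0.009 over all probes, and it was 0.062, 0.109 and 0.069 on chips 1, 2 and 3. It was 0.031 for the 24 probes with Rps symbols, Rps19bp1 included, and 0.108 for the 39 with Rpl symbols, Rpl7l1 included. It was 0.030 in the 40 probes with a mean log2 signal of 13 or more (24 above 0) and 0.186 in the 23 below it (19 above 0).

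Rps2 is a small subunit protein at the channel where the mRNA enters. Its signal was 10.89 to 11.54 (median 11.36) in later exercise hearts, 10.90 to 11.43 (median 11.05) in early exercise hearts of 24 weeks and 10.57 to 11.06 (median 10.87) in sedentary hearts of that age. The groups overlapped, with 5 of 7 later exercise hearts above every sedentary heart. The log2 difference of later exercise minus sedentary was 0.42 ± 0.12 (SE), a fold of 1.34 (limma adjusted p = 0.018), and it was 0.41, 0.30 and 0.49 on chips 1, 2 and 3.

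Rpl13, a large subunit protein, was at 11.25 to 12.05 (median 11.74) in later exercise, 11.24 to 11.80 (median 11.58) in early exercise and 11.04 to 11.56 (median 11.33) in sedentary hearts of 24 weeks. Here 4 of 7 later exercise hearts lay above all sedentary ones, and the lowest lay among them. The log2 difference was 0.39 ± 0.11 (SE), a fold of 1.31 (limma adjusted p = 0.0172), and 0.28, 0.36 and 0.47 on the 3 chips.

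Rpl13a is a large subunit protein that in human cells is also released from the ribosome after interferon and silences mRNAs of inflammation. It was at 12.004 to 12.73 (median 12.37) in later exercise, 12.17 to 12.59 (median 12.30) in early exercise and 11.76 to 12.17 (median 12.06) in sedentary hearts of 24 weeks. All but 1 of the later exercise hearts were above every sedentary heart. The log2 difference was 0.38 ± 0.091 (SE), a fold of 1.30 (limma adjusted p = 0.00493), and 0.36, 0.35 and 0.37 on the 3 chips.

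Rps29 is a small zinc-binding protein of the small subunit. It was at 13.33 to 13.73 (median 13.67) in later exercise, 13.24 to 13.66 (median 13.53) in early exercise and 13.13 to 13.42 (median 13.31) in sedentary hearts of 24 weeks, with 5 of 7 later exercise hearts above all sedentary ones. The log2 difference was 0.29 ± 0.087 (SE), a fold of 1.22 (limma adjusted p = 0.0251), and 0.24, 0.34 and 0.41 on the 3 chips.

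These 4 calls hold for some settings and not for others. With the mean of the very long transcripts as a covariate, 0 of the 63 probes were called, with adjusted p of 0.443 (Rpl13), 0.828 (Rpl13a), 0.647 (Rps2) and 0.527 (Rps29), and the median over the 63 probes was −0.044. The log2 differences were then 0.28, 0.07, 0.18 and 0.18 in the same order. With array brightness as a covariate 0 were called as well, with adjusted p of 0.105, 0.110, 0.106 and 0.571. There the log2 differences of Rpl13, Rpl13a and Rps2 were 0.43 ± 0.14, 0.35 ± 0.12 and 0.47 ± 0.16 (SE), about as large as before with a wider error, while that of Rps29 was 0.12 ± 0.10, and the median over the 63 probes was 0.105. Of all probes, 1.03% and 1.31% were called in these 2 fits, against 12.4% without a covariate. Scaled to a common median in place of quantile normalization, 45 of the 63 were higher, but so were 3585 of all probes (890 lower, against 503 higher and 853 lower in the quantile normalized table), with a median of 0.421 in the 63 probes and 0.181 in all. Leaving out 1 heart ended the call of Rps2 (later exercise replicate 4, adjusted p = 0.0502), of Rpl13 (later exercise replicate 5, 0.0542) and of Rps29 (later exercise replicate 1, 3 or 5 or sedentary replicate 4, 0.0511 to 0.0579), and the call of Rpl13a remained in each of the 14 fits.

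**Figure D2:**
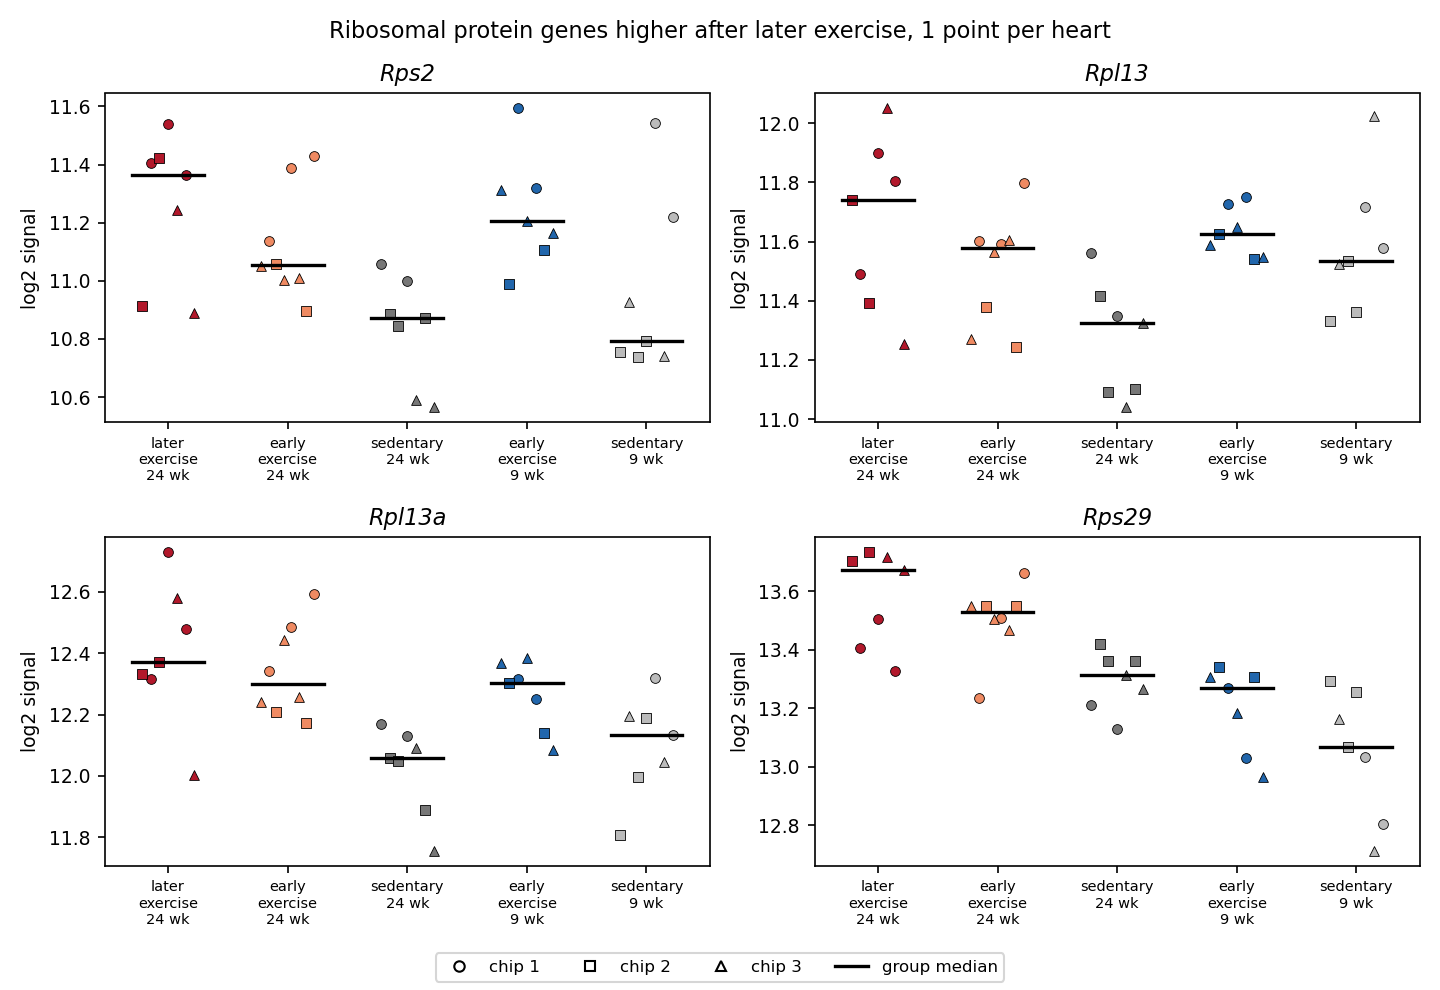
Log2 signal of Rps2, Rpl13, Rpl13a and Rps29 in each heart by group, with the chip as the shape of the point and the group median as a bar. Later exercise medians (11.36, 11.74, 12.37 and 13.67) stand above those of sedentary rats of 24 weeks (10.87, 11.33, 12.06 and 13.31), with early exercise in between and overlapping both or 1 of them.

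Among the other members, Rpl22l1 (0.37 ± 0.13 SE, limma adjusted p = 0.0611), Rpl31 (0.28 ± 0.10, 0.0693) and Rps7 (−0.22 ± 0.081, 0.0705) came nearest to the threshold. Rps7, a small subunit protein, was at 14.44 to 14.73 (median 14.51) in later exercise and 14.59 to 15.06 (median 14.68) in sedentary hearts, and differed by −0.42, 0.03 and −0.33 on the 3 chips. The next on the lower side were Rps4x (−0.13, adjusted p = 0.199) and Rps25 (−0.20, 0.223). Scaled to a common median, which moved the median of all probes to 0.181 and that of the 63 to 0.421, Rps7 gave 0.46 and Rps4x 0.58. When the chip entered the model as a block, 7 of the 63 were called higher (the 4 above, Rpl31, Rpl41 and Rps23) and 1 lower (Rps7), 12.7% of them in all, beside 17.2% of all probes in that fit.

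Rpl30, a large subunit protein picked out after its values were seen, had the largest log2 difference of the 63 probes in this comparison and the widest spread within groups. It was at 7.06 to 9.89 (median 8.38) in later exercise and 7.33 to 8.99 (median 7.41) in sedentary hearts of 24 weeks. The groups overlapped, with 3 of 7 later exercise hearts above every sedentary heart and the lowest later exercise heart below them all, and the log2 difference was 0.58 ± 0.39 (SE, limma adjusted p = 0.359). The 2 Rps9 probes did not go together: the stronger, detected on all arrays, was at 9.25 to 10.89 (median 9.77) in later exercise and 8.62 to 10.40 (median 9.32) in sedentary hearts (difference 0.44 ± 0.30, adjusted p = 0.367), and the weaker differed by −0.03 ± 0.18 (0.946).

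Early exercise was compared with sedentary life at 24 weeks to see what lasts after training in early life. None of the 63 probes passed, nor did any probe of the table (0 called, 0.0% of 10956). At an unadjusted p below 0.05, 8 of the 63 (12.7%) were higher and 0 lower, beside 4.42% and 5.98% of all probes. The median log2 difference was 0.105, with 52 of 63 above 0, and −0.004 over all probes, and it was 0.087, 0.039 and 0.136 on the 3 chips. Scaled to a common median it was 0.275, with 63 of 63 above 0 and 0.064 over all probes. With the very long transcript mean as a covariate it was −0.004, with 29 above 0. With array brightness as a covariate it was 0.093, with 58 above 0.

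Rpl13a again had the smallest p of the 63 here. Its values in early exercise hearts, given above, lay above all those of sedentary hearts of 24 weeks, with a log2 difference of 0.32 ± 0.088 (SE) and a limma adjusted p of 0.143, and 0.32, 0.19 and 0.39 on the 3 chips. Rpl31, which sits by the exit of the tunnel through which the new protein leaves the ribosome, was at 8.35 to 8.80 (median 8.61) in early exercise and 8.12 to 8.48 (median 8.28) in sedentary hearts. The groups overlapped, and it differed by 0.33 ± 0.10 (adjusted p = 0.195), or 0.35, 0.23 and 0.41 on the 3 chips.

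Rpl41, which codes for a very short basic peptide of the ribosome, was at 14.46 to 15.01 (median 14.88) in early exercise and 14.02 to 14.86 (median 14.81) in sedentary hearts of 24 weeks. Its difference of 0.29 (adjusted p = 0.316) was 0.50, 0.01 and 0.49 on the 3 chips, so chip 2 showed none of it. On the lower side the smallest p belonged to Rpl6 (−0.11, adjusted p = 0.725), Rps7 (−0.06, 0.861) and Rpl9 (−0.05, 0.888).

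The early and later exercise comparisons at 24 weeks share the 7 sedentary arrays, so their likeness is partly built in. The direct comparison of later with early exercise called 0 of the 63 probes, beside 0.438% of all probes. At an unadjusted p below 0.05 it also had 0 of the 63, beside 4.55% of all probes higher and 7.69% lower. The median over the 63 was 0.0004, with 32 above 0. The largest gaps by p were Rpl13 (0.15, limma adjusted p = 0.590), Rpl3l (0.10, 0.667) and Rpl37l1 (0.18, 0.669) on the higher side, and Rps7 (−0.16, 0.427), Rps4x (−0.12, 0.431) and Rps14 (−0.12, 0.488) on the lower.

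Early exercise at 9 weeks, at the end of training, was compared with sedentary life at 9 weeks. None of the 63 probes passed the adjusted threshold, nor did any other probe (0.0%). Without adjustment, 12 of the 63 were higher and 1 lower, beside 4.63% of all probes higher. The median log2 difference was 0.098, with 56 of 63 above 0, and it was 0.038, 0.130 and 0.160 on the 3 chips. Scaled to a common median it was 0.240, with −0.003 over all probes. The probes with Rps and Rpl symbols had medians of 0.101 and 0.098. With the very long transcript mean as a covariate the median over the 63 was 0.043, with 42 above 0. With array brightness as a covariate it was 0.101, with 57 above 0.

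Rpl31 was the member with the smallest p. It was at 8.60 to 8.77 (median 8.67) in early exercise hearts and 7.89 to 8.54 (median 8.39) in sedentary hearts of 9 weeks. The groups did not overlap, and the log2 difference was 0.39 ± 0.10 (SE), a fold of 1.31, with a limma adjusted p of 0.315 and values of 0.27, 0.42 and 0.47 on the 3 chips. Rpl7a, a large subunit protein with the smallest spread of all members, was at 13.68 to 13.82 (median 13.80) in early exercise and 13.48 to 13.85 (median 13.52) in sedentary hearts (0.20, adjusted p = 0.466), so that 1 sedentary heart was above every trained one. On the lower side stood Rpl3l (−0.27, 0.479), Rps24 (−0.20, 0.748) and Rpl32 (−0.08, 0.846).

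The change from the early to the later training response was tested itself, as later exercise minus sedentary at 24 weeks minus early exercise minus sedentary at 9 weeks. None of the 63 probes passed (limma), beside 0.146% of all, and at an unadjusted p below 0.05 there were 2 higher (3.17%) and 1 lower (1.59%), beside 4.8% and 8.32% of all probes. The median was −0.051, with 25 above 0, and scaled to a common median it was 0.204, with 0.161 over all probes, so its sign depends on the scaling. The 3 members with the smallest p on the higher side were Rpl3l (0.41 ± 0.13 SE, limma adjusted p = 0.166; 0.28, 0.44 and 0.43 on the 3 chips), Rpl13 (0.34, 0.345) and Rpl32 (0.21, 0.407). On the lower side they were Rpl9 (−0.20, 0.360), Rps25 (−0.29, 0.382) and Rpl3 (−0.19, 0.417). The early exercise effect at 24 weeks minus that at 9 weeks, a contrast added after the values were seen, called 0 members and 0.0% of all probes, with a median of −0.032. At an unadjusted p below 0.05, 1 member (1.59%) was higher and 0 lower, beside 1.21% and 1.83% of all probes.

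**Figure D3:**
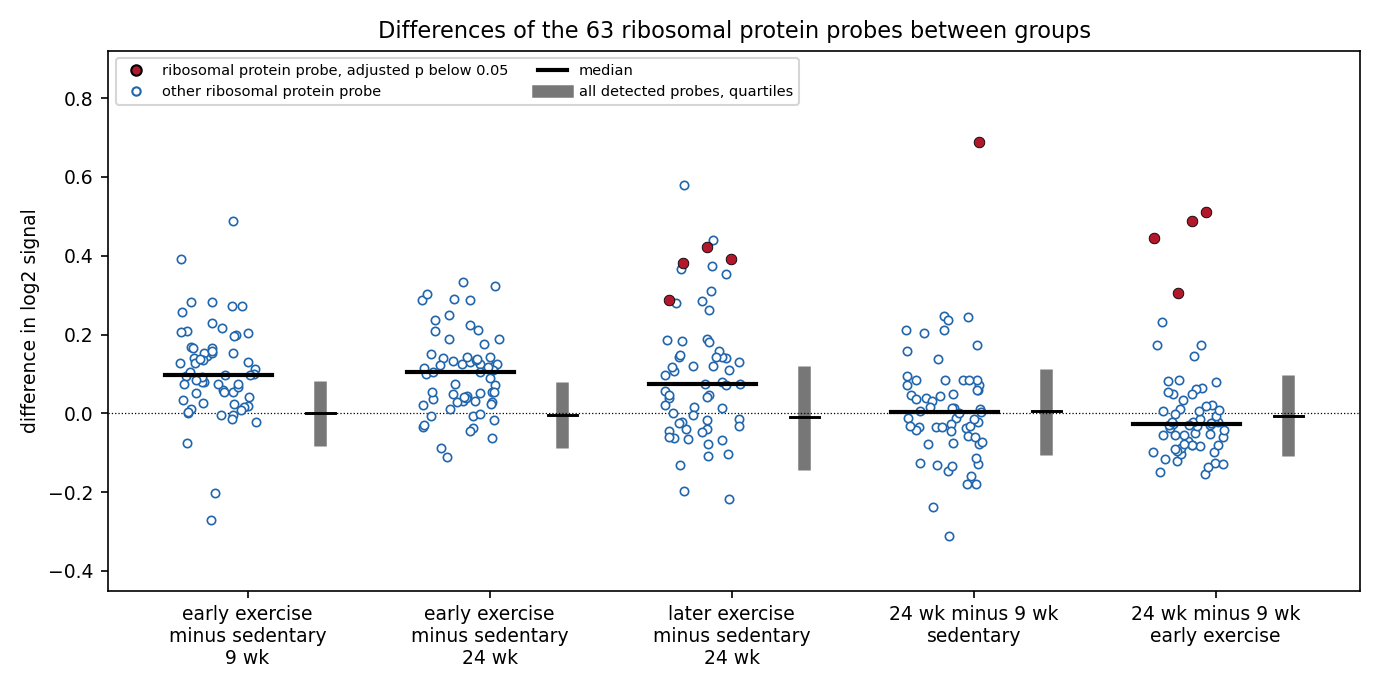
Log2 difference of each of the 63 ribosomal protein probes in 5 comparisons, with filled points for an adjusted p below 0.05, a bar for their median and a grey bar for the quartiles and median of all detected probes. The medians of the 3 exercise comparisons (0.098, 0.105 and 0.075) lie above 0 and those of the age comparisons (0.003 and −0.027) close to it, and the filled points number 0, 0, 4, 1 and 4.

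Age was compared in sedentary and in early exercise rats. In sedentary rats 1 of the 63 probes, Rpl22l1, was higher at 24 weeks and 0 were lower, beside 3.48% and 3.09% of all probes. Without adjustment 4 were higher and 4 lower at a p below 0.05 (6.35% each), beside 10.1% and 9.29% of all probes. The median log2 difference was 0.003, with 33 above 0. In early exercise rats 4 were higher (Rpl3l, Rpl22l1, Rps24 and Rps29) and 0 lower, beside 4.35% and 3.68% of all probes, and the median was −0.027 with 23 above 0. Without adjustment 5 were higher (7.94%) and 1 lower (1.59%), beside 9.56% and 10.4% of all probes. Under scaling to a common median that median was 0.041, with 0.109 over all probes. The fibroblast markers, 6 of 6 detected, moved with age: their array mean was 10.95 to 11.49 at 24 weeks and 11.80 to 12.21 at 9 weeks. All 6 had a log2 difference below 0 in both age comparisons, and 5 in sedentary and 4 in early exercise rats were called lower (limma adjusted p below 0.05). The part of cell composition in the age differences below was not tested.

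Rpl22l1 codes for a protein that can take the place of Rpl22 in the large subunit, and in mice Rpl22 represses it. It was at 8.18 to 9.36 (median 8.49) in later exercise, 8.18 to 8.73 (median 8.42) in early exercise and 8.07 to 8.36 (median 8.18) in sedentary hearts of 24 weeks. At 9 weeks it was at 7.74 to 8.25 (median 7.96) in early exercise and 7.09 to 7.89 (median 7.47) in sedentary hearts. The sedentary hearts of 24 weeks all lay above those of 9 weeks, and the early exercise groups overlapped a little. The log2 difference with age was 0.69 ± 0.13 (SE), a fold of 1.61, in sedentary rats (limma adjusted p = 0.000827; 0.48, 0.81 and 0.71 on chips 1, 2 and 3) and 0.49 ± 0.13 in early exercise rats (0.0136; 0.68, 0.39 and 0.41). Both calls held in all of the fits that left out 1 heart, with scaling to a common median and with each covariate.

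Rpl22l1 was also among the leading members in the exercise comparisons, without passing. It differed by 0.37 ± 0.13 for later exercise, by 0.29 ± 0.13 for early exercise at 24 weeks (limma adjusted p = 0.420) and by 0.49 ± 0.13 for early exercise at 9 weeks (0.346; 0.12, 0.58 and 0.63 on the 3 chips), each minus sedentary. The highest heart of all, later exercise replicate 4, also had the lowest very long transcript mean (8.14) and the highest Rpl37l1 signal (11.08). Rpl22 itself was at 13.82 to 14.23 (median 13.97) in later exercise, 13.82 to 14.14 (median 14.02) in early exercise and 13.75 to 13.996 (median 13.90) in sedentary hearts of 24 weeks. It was at 13.89 to 14.21 (median 14.11) in early exercise and 13.82 to 14.05 (median 13.91) in sedentary hearts of 9 weeks. All 5 groups overlapped, and with age Rpl22 differed by −0.05 in sedentary (adjusted p = 0.795) and −0.08 in early exercise rats (0.585).

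Rpl3l is the copy of Rpl3 that is used in heart and skeletal muscle. It was at 9.26 to 9.55 (median 9.43) in early exercise hearts of 24 weeks and 8.74 to 9.11 (median 8.89) in early exercise hearts of 9 weeks. These groups did not overlap, and the log2 difference was 0.51 ± 0.088 (SE), a fold of 1.42 (limma adjusted p = 0.00015; 0.56, 0.41 and 0.56 on the 3 chips), a call that held in all 15 fits without 1 heart. In sedentary rats it was at 9.25 to 9.52 (median 9.34) at 24 weeks and 8.69 to 9.55 (median 9.22) at 9 weeks, with a wide spread at 9 weeks and a difference of 0.20 (adjusted p = 0.197). Whether the age difference itself differed between early exercise and sedentary rats is the contrast of the early exercise effects at 24 and 9 weeks, in which Rpl3l gave 0.31 (95% interval 0.05 to 0.56, adjusted p = 0.999).

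At 9 weeks Rpl3l was the lower in early exercise hearts, by −0.27 ± 0.091 (limma adjusted p = 0.479), with −0.04, −0.33 and −0.35 on the 3 chips, so chip 1 had little of it. At 24 weeks it differed by 0.14 for later exercise (0.341) and 0.04 for early exercise (0.945). Rpl3 differed with age by 0.05 in sedentary (0.792) and −0.05 in early exercise rats (0.778), and by −0.06, 0.03 and 0.13 for later exercise, early exercise at 24 weeks and early exercise at 9 weeks. Of 4 skeletal muscle marker probes, those of Actn3, Myh2 and Myh4 were not detected in these hearts and 1 was, at 5.58 to 7.23 with the highest value in an early exercise heart of 9 weeks. The cardiomyocyte markers, 10 of 11 probes detected, had an array mean of 11.31 to 11.85. Its median was 11.71 in later exercise, 11.63 in early exercise and 11.69 in sedentary hearts of 24 weeks. At 9 weeks it was lowest in early exercise hearts (11.46), against 11.59 in sedentary ones. With age, 2 of the 10 probes were called higher and 0 lower in sedentary and in early exercise rats (5 and 7 above 0). Their part in the Rpl3l differences was not tested.

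**Figure D4:**
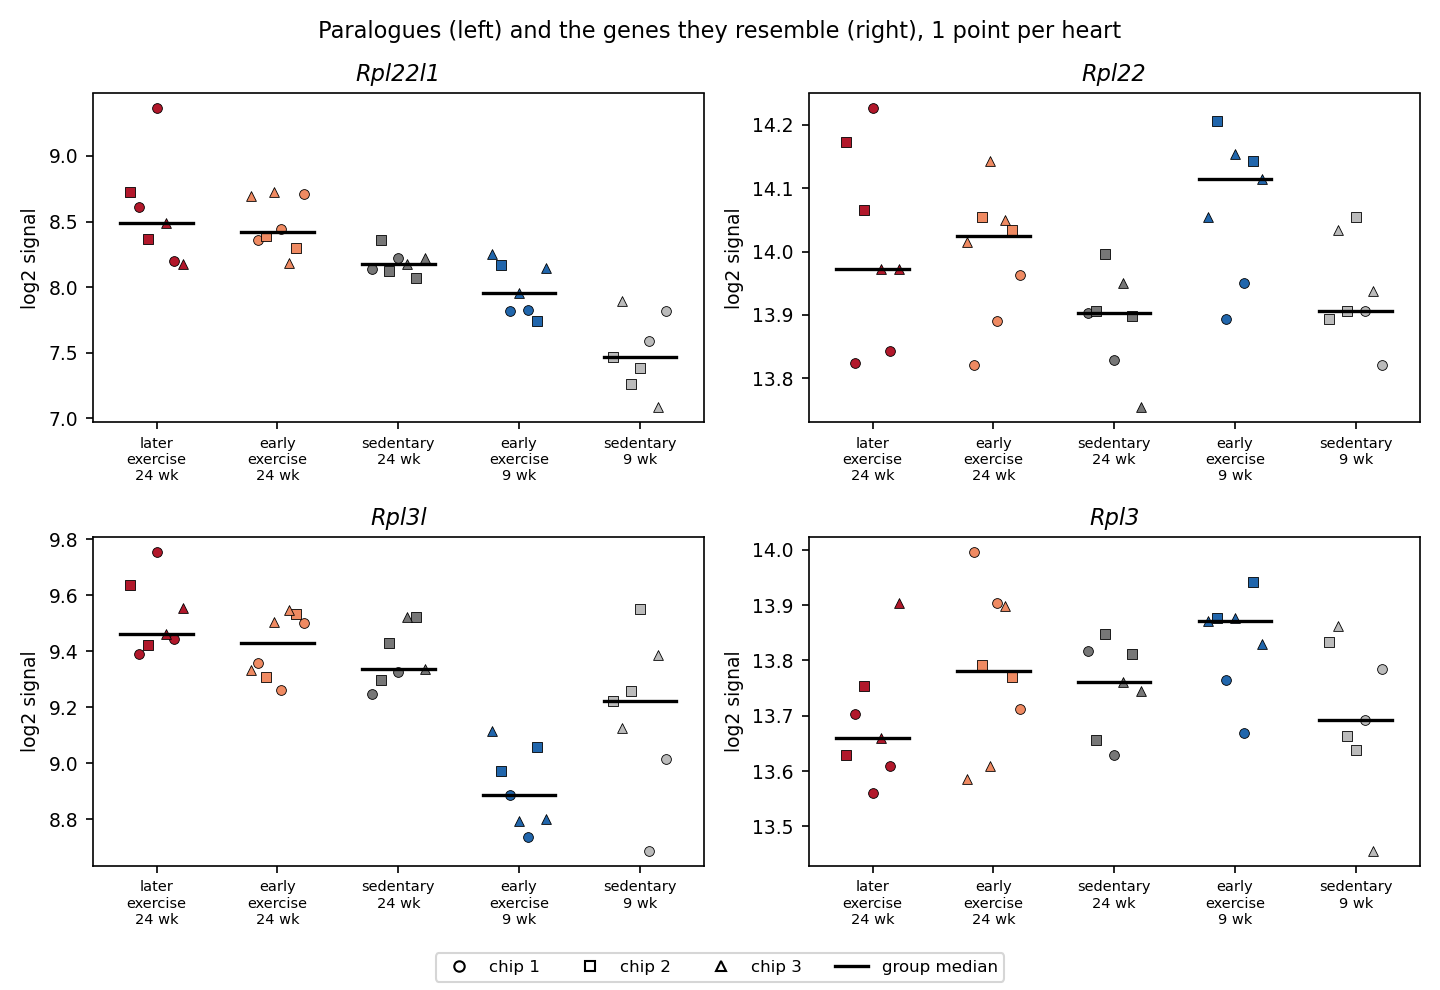
Log2 signal of Rpl22l1 and Rpl3l (left) and of Rpl22 and Rpl3 (right) in each heart by group, with the chip as the shape of the point and the group median as a bar. The medians of Rpl22l1 stand at 8.49, 8.42 and 8.18 at 24 weeks and at 7.96 and 7.47 at 9 weeks, and Rpl3l is lowest in early exercise hearts of 9 weeks (8.89), while Rpl22 and Rpl3 overlap in all groups.

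Rps24, a small subunit gene mutated in some people with Diamond-Blackfan anaemia, was at 9.95 to 10.53 (median 10.35) in early exercise hearts of 24 weeks and 9.43 to 10.10 (median 9.95) in early exercise hearts of 9 weeks. The groups overlapped, with a log2 difference of 0.45 ± 0.13 (SE), a fold of 1.36 (limma adjusted p = 0.0244; 0.66, 0.33 and 0.42 on the 3 chips). Without early exercise replicate 3 or 5 of 9 weeks the adjusted p was 0.0762 and 0.0566. In sedentary rats Rps24 differed with age by 0.21 (0.403). The contrast of the early exercise effects at 24 and 9 weeks, which compares these age differences, called neither Rps24 nor any other member.

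Rps29 was at 13.24 to 13.66 (median 13.53) in early exercise hearts of 24 weeks and 12.96 to 13.34 (median 13.27) in those of 9 weeks, which overlapped. The difference was 0.30 (limma adjusted p = 0.018; 0.32, 0.23 and 0.36 on the 3 chips), with an adjusted p of 0.0593 without early exercise replicate 7 of 9 weeks and 0.0683 when scaled to a common median. In sedentary rats it was at 13.13 to 13.42 (median 13.31) at 24 weeks and 12.71 to 13.29 (median 13.07) at 9 weeks, with a difference of 0.25 (0.0808). Rps29 was not called in the contrast of the age differences either. The next members with age in sedentary rats were Rps15 (0.25, 0.0651) on the higher side and Rpl13 (−0.31, 0.0846), Rpl32 (−0.18, 0.165) and Rpl41 (−0.24, 0.234) on the lower. In early exercise rats the lower side was led by Rpsa (−0.15, 0.128), Rpl7l1 (−0.13, 0.327) and Rpl6 (−0.15, 0.342).

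Rplp0, Rplp1 and Rplp2 form the acidic stalk that brings translation factors to the ribosome. Rplp0 was at 14.82 to 15.14 in later exercise, 14.72 to 15.01 in early exercise and 14.61 to 14.98 in sedentary hearts of 24 weeks, and at 14.81 to 15.03 in early exercise and 14.47 to 15.10 in sedentary hearts of 9 weeks. Rplp1 was at 13.67 to 13.98 in later exercise, 13.74 to 13.97 in early exercise and 13.55 to 13.88 in sedentary hearts of 24 weeks, and at 13.78 to 13.93 in early exercise and 13.47 to 13.85 in sedentary hearts of 9 weeks. The groups overlapped for both. The log2 differences of later exercise, early exercise at 24 weeks and early exercise at 9 weeks, each minus sedentary, were 0.11, 0.05 and −0.02 for Rplp0, 0.04, 0.12 and 0.20 for Rplp1 and 0.08, 0.15 and 0.05 for Rplp2, and none passed.

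Rps6, the small subunit protein that S6 kinase phosphorylates when growth signalling is on, was at 14.10 to 14.38 in later exercise, 14.05 to 14.36 in early exercise and 13.95 to 14.48 in sedentary hearts of 24 weeks. At 9 weeks it was at 14.05 to 14.36 in early exercise and 13.96 to 14.36 in sedentary hearts. Its mRNA signal hardly moved, with differences of 0.01, 0.03 and 0.02 in the order just given. Rpsa, which doubles as a laminin receptor, differed by −0.04, −0.00 and 0.09.

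Of the symbols the rule takes in that are not ordinary subunit genes, Rps19bp1, whose protein binds Rps19, differed by 0.37 (limma adjusted p = 0.225), 0.25 (0.706) and 0.27 (0.767) for later exercise, early exercise at 24 weeks and early exercise at 9 weeks. In the same order Rpl37l1 differed by 0.35 (0.140), 0.17 (0.766) and 0.23 (0.759), Rpl36al1 by 0.14, 0.14 and 0.21, and Rpl7l1 by −0.04, 0.02 and 0.15. None of them was called in any exercise comparison.

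Genes that work beside the ribosomal proteins were counted from lists chosen with earlier results known, and the counts with later exercise stand beside 4.59% of all probes called higher and 7.79% lower. Other genes with TOP mRNAs (elongation and initiation factors and the like, 18 probes detected) had 1 called higher and 0 lower with later exercise, Npm1, a nucleolar chaperone of ribosome assembly (0.29, limma adjusted p = 0.0352), with a list median of 0.053 and 14 of 18 above 0. Ribosome biogenesis genes (48 probes) had 3 higher and 0 lower: Nop16 (0.44, 0.00427) and Gar1 (0.35, 0.0189), which act in the nucleolus, and Polr1a, the largest subunit of RNA polymerase I (0.30, 0.0468). Their median was 0.086 with 33 of 48 above 0.

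The proteins of the mitochondrial ribosome, a separate machine that translates mitochondrial mRNAs, had 9 of 57 probes higher and 0 lower with later exercise, led by Mrpl53 (0.44, limma adjusted p = 0.00051), Mrps25 (0.53, 0.0014), Mrpl28 (0.41) and Mrpl34 (0.41). Their median was 0.131 with 48 of 57 above 0, against 0.075 in the cytosolic 63. Of the Akt, mTOR and S6 kinase list (18 probes), 1 was higher, Eif4ebp1, the repressor of cap-dependent translation that mTOR switches off (0.33, 0.0112). On the other side 4 were lower, among them Mtor itself (−0.49, 0.00188), Pdpk1, a kinase that activates Akt (−0.47, 0.00325), and Mlst8, a partner of Mtor (−0.39, 0.0218), and the median was −0.133. The very long transcripts had 9 of 19 lower and 0 higher, with a median of −0.382. In early exercise rats none of these lists had a called member at 9 or at 24 weeks, where 0.0% of all probes were called.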

How the data were processed

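Hearts of 36 male Control rats were measured on Illumina beadchips. The deposited raw signal intensity has no background correction or normalization per its values, and the deposited detection score, headed as a p value, is 1 minus that p. The deposited log2 table, made per the submitters' processing notes with R 3.2.2 and limma 3.24.15, differs by at most 0.0417 from values made here by normexp background correction, an offset of 16 and quantile normalization. The methods describe variance stabilization with lumi and an analysis of variance.

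The log2 table was fitted in R 4.3.3 with limma 3.58.1, 1 model of the 5 groups on all arrays, with moderation and Benjamini-Hochberg adjustment over 10956 probes, and tested on simulated data. Of 22523 probes, 13793 carry 1 symbol, and 13752 of their gene IDs are in the RefSeq table, where no symbol changed. Members, lists and tests were chosen with earlier results of these data known. Named genes are members called, the 3 each way with the smallest p where fewer than 5 were called, the stalk genes, Rpsa, Rps6 and the copies with their originals. The methods give 6 arrays per beadchip, the labels 3 chips of 12, which are used here. Same-numbered replicates did not vary together (correlations from -0.373 to 0.397).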

Additional observations from a re-analysis of the deposited data

Results flagged for a closer look

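In 165 groups of values, those of 32 named probes and of the array median of the 63 probes, 11 held a heart whose gap to the next passed Dixon's 95% limit, and chance alone flags about 1 group in 20. At 24 weeks they were later exercise replicate 4 (Rpl37l1 high at 11.0836), early exercise replicate 2 (Rpl41 low at 14.464 and Rps29 low at 13.2357), sedentary replicate 4 (Rpl7l1 low at 10.8951 and the weaker Rps9 probe high at 6.5808) and sedentary replicate 6 (Rpl36al1 low at 12.6487). At 9 weeks they were early exercise replicate 3 (Rpl9 low at 14.6093 and Rps6 low at 14.0494) and sedentary replicate 5 (Rpl41 low at 14.2895, Rplp0 low at 14.4731 and Rpsa high at 14.6139).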

How the results depend on the processing

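Each result was computed again under the other settings, and none of them reversed a called difference. Of 84 counts of called members, 71 stayed within 1.5 times the main count. Many of these belong to comparisons with a main count of 0, where the rule only asks whether any member was called. For later exercise minus sedentary (4 called) the count was 45 when arrays were scaled to a common median, 8 with chip as a block, 2 with only the groups compared (Rpl13a and Rps2), 0 with array brightness as a covariate (log2 differences of the 4 genes 0.12 to 0.47), 0 with the very long transcript mean as a covariate (0.07 to 0.28) and 2 without later exercise replicates 3 and 5. In the same order, these are 71.4%, 12.7%, 3.17%, 0%, 0% and 3.17% of the 63. Of all probes, 40.8%, 17.2%, 5.39%, 1.31%, 1.03% and 8.02% were called in these fits. For age in sedentary rats (1 called) it was 2 without background correction, 4 with chip as a block, 2 with brightness and 3 with the very long transcript mean as a covariate. These are 3.17%, 6.35%, 3.17% and 4.76% of the 63, beside 7.13%, 9.55%, 6.21% and 8.14% of all probes in the same fits. The methods' thresholds, an unadjusted p with a limit on the fold, gave 2 members each for early exercise at 9 weeks, early exercise at 24 weeks and the difference of training responses (3.17% of the 63), against 0, beside 1.19%, 1.73% and 6.42% of all probes. With each array left out in turn, added after the values were seen, the count ran from 2 (without later exercise replicate 5) to 7 (without later exercise replicate 7) for later exercise, from 1 to 2 for age in sedentary rats, from 3 to 4 for age in early exercise rats and was 0 in every such fit of the other comparisons. The cause of these shifts was not tested. The replicate number as a block gave 5 members (7.94%) for later exercise, beside 13.8% of all probes, adding Rpl22l1 (adjusted p = 0.0271), and changed no other call. Same-numbered samples come from no shared animal. The probes of Rplp2 and the weaker of Rps9 lie near background, where the signal over background limits what a difference can show.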
